A study of Mus musculus with 18 samples.

Results

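The 9 genes described here belong to the extracellular insulin-like growth factor (IGF) system of the mouse: the ligands Igf1 and Igf2, the signalling receptor Igf1r, and the binding proteins Igfbp2, Igfbp3, Igfbp4, Igfbp5, Igfbp6 and Igfbp7. They were taken by symbol, through their Ensembl identifiers, out of 53342 gene identifiers in each count file, and all 9 were present. The libraries are RNA-seq of heart cells sorted on Thy1, which cardiac fibroblasts carry on their surface. The labels write these cells as Thy1+ HE or Thy1+HE- without spelling out HE. The study set 3 inbred strains under isoproterenol (ISO, a beta-adrenergic agonist given through implanted pumps) beside hearts that received saline (sham).

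The 9 groups were KK/HlJ, C3H/HeJ and C57BL/6 hearts, each at ISO day 14, at ISO day 21 and as sham, with 2 libraries a group and 18 in all. The sham labels carry no day, so in each strain the same 2 sham libraries stand against both ISO days, and the day 14 and day 21 differences share them. The labels give no age, and they do not say whether the 2 libraries of a group came from separate animals or from pools, so a p-value here reflects how far libraries of 1 group differ, and that spread may be only technical. In sorted bulk RNA, fewer cells that make a transcript and less of it per cell cannot be told apart.

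IGF1 and IGF2 are secreted peptides that signal through the IGF1 receptor, a tyrosine kinase, to the PI3 kinase and MAP kinase pathways, which promote growth and survival. The binding proteins are secreted as well: they hold the ligands outside the cell, prolong or block their access to the receptor, and release them when proteases cut them. In the heart, fibroblasts and macrophages are known sources of IGF1, and fibroblasts are known sources of several binding proteins.

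The start regions of 4 binding protein genes are shown because they bracket the range of levels reported below: Igfbp7 and Igfbp4 had the most reads of the 9 genes, while Igfbp5 and Igfbp2 lie next to each other on chromosome 1, with a gap of 5457 bases between them, and had very different levels. Each line gives the 250 bases before the start site in RefSeq on GRCm38.p6 (the assembly also called mm10), 5′ to 3′ on the gene's strand. Igfbp7 is read from chr5:77408046-77408295 on the minus strand, Igfbp4 from chr11:99040994-99041243 on the plus strand, Igfbp5 from chr1:72874866-72875115 on the minus strand and Igfbp2 from chr1:72824230-72824479 on the plus strand. Capitals mark GGGCGG, known as the GC box, or TATAAA, known as the TATA box, on either strand.
Igfbp7: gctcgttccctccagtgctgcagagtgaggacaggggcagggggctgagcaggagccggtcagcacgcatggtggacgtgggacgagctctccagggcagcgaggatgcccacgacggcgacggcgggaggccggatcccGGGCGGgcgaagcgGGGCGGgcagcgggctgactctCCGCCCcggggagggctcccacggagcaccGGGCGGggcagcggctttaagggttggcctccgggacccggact
Igfbp4: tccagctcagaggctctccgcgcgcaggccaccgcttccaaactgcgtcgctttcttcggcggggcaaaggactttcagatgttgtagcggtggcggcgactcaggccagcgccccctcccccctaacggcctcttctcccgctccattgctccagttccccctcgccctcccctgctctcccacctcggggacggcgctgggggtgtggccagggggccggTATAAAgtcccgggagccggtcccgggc
Igfbp5: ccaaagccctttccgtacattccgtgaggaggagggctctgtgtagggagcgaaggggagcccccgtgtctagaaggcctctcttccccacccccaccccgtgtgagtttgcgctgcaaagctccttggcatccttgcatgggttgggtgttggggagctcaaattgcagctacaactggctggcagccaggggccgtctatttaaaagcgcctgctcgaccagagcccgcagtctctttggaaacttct
Igfbp2: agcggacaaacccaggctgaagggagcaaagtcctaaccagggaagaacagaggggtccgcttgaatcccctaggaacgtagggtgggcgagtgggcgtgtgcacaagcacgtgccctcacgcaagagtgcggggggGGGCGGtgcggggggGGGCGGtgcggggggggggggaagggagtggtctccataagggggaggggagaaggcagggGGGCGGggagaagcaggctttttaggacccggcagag
Igfbp7 holds 4 GC boxes in this window and Igfbp2 holds 3, while Igfbp4 holds 1 TATA box and Igfbp5 holds neither sequence. Of 32807 RefSeq promoters of this length, 32.7% hold GGGCGG and 12.4% hold TATAAA. The cyclic AMP response half-site TGACG, which also forms part of the full element TGACGTCA, was found in none of the 9 windows, against 17.8% of all promoters. Only 1 window a gene was read, although 4 are listed for Igf2 and 2 for Igfbp2. The start sites used for Igf1 and Igf1r lie 2846 and 570 bases from the gene start in the GENCODE M21 annotation. A letter match is a description, and its absence says only that these letters are not in this window.

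The genes sit at separate loci apart from that pair. On mm10, with the GENCODE M21 annotation, Igfbp5 spans chr1:72857932-72874884 and Igfbp2 chr1:72824503-72852474. Igfbp4 spans chr11:99041244-99054392, Igfbp3 chr11:7206086-7213923, Igfbp6 chr15:102144362-102149511 and Igfbp7 chr5:77349240-77408041. The ligand genes are at chr10:87858265-87937042 (Igf1) and chr7:142650766-142666816 (Igf2), and Igf1r is at chr7:67952827-68233668; all 9 are annotated as protein coding. Igfbp7 shares 85 exon bases with Polr2b on the opposite strand, and Igf2 shares 3596 exon bases with Gm49394, which had 0 counts in every library, so reads of these stretches could be assigned to either gene or to neither.

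Total counts ran between 7230741 and 26280685 per library. Resting cardiac fibroblast markers summed to between 78690 and 140500 CPM (counts scaled to library size) and T and B lymphocyte markers to between 0 and 5.72 CPM. Activated fibroblast markers (Postn, Cthrc1, Comp, Fn1 and Tnc) summed to between 2851 and 4782 CPM at ISO day 14, between 1631 and 4463 CPM at ISO day 21 and between 770.1 and 1328 CPM in sham, so every ISO library lay above every sham library. Endothelial markers summed to between 149 and 1069 CPM, macrophage markers to between 3.95 and 219 CPM, and pericyte and smooth muscle markers to between 1221 and 6231 CPM. Cardiomyocyte markers summed to between 50.1 and 356 CPM and mesothelial and epicardial markers to between 103 and 510.0 CPM. Schwann cell and glia markers summed to between 80.8 and 131 CPM at ISO day 14, between 74.1 and 115 CPM at ISO day 21 and between 111 and 164 CPM in sham. The part of these marker sets in the values below was not tested. The 4 libraries least like the others (median correlations between 0.811 and 0.847, against 0.862 to 0.912 for the other 14) were replicate 1 of each KK/HlJ group and of C3H/HeJ sham, and results that change without them are given with and without them.

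The binding proteins made up nearly all of the system's RNA. The 9 genes together held between 0.461% and 0.777% of the scaled reads of a library, and Igf1, Igf2 and Igf1r together only between 54.2 and 214 CPM of that. Per kilobase of exon, Igfbp7 had the highest median over the 18 libraries (1371 CPM per kb), followed by Igfbp6 (614), Igfbp4 (595), Igfbp5 (93.1), Igfbp3 (46.9), Igf1 (11.2) and Igf1r (2.00). Igf2 and Igfbp2 had medians of 0. The order from Igfbp4 down to Igf1r held in 18 of 18 libraries at every step; Igfbp7 lay above Igfbp6 in 15 of 18, and Igfbp6 above Igfbp4 in only 8 of 18, so the order of those 2 genes is not set by these data.

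**Figure D1:**
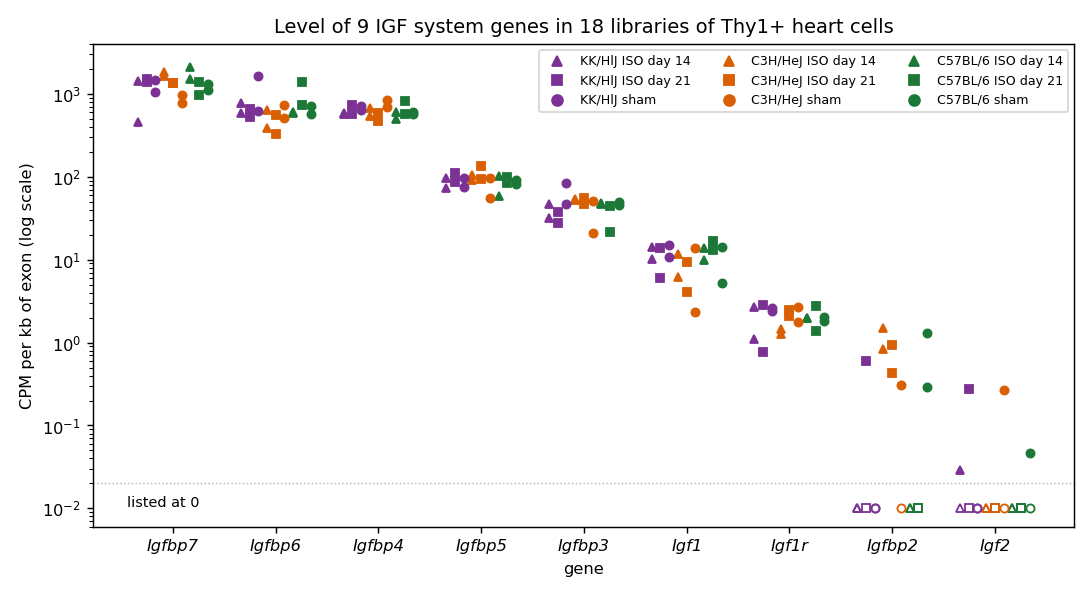
Level per kilobase of exon (CPM per kb, log axis) of the 9 genes in 18 libraries, 1 point a library, colour for strain and shape for condition; open points at the foot are libraries listed at 0. Igfbp7, Igfbp6 and Igfbp4 lie highest, with medians of 1371, 614 and 595, and Igf2 and Igfbp2 are at 0 in 14 and 10 of 18 libraries.

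Igf1, the main growth-promoting ligand in adult tissue, was detected in every library with at least 403 counts. In KK/HlJ cells it had 100.3 and 142 CPM at ISO day 14, 59.0 and 138 CPM at ISO day 21 and 147 and 107 CPM in sham hearts. C3H/HeJ cells had 115 and 60.8 CPM at ISO day 14, 40.0 and 92.6 CPM at ISO day 21 and 137 and 23.0 CPM in sham hearts. C57BL/6 cells had 136 and 99.0 CPM at ISO day 14, 168 and 129 CPM at ISO day 21 and 51.8 and 141 CPM in sham hearts. The lowest library of all was replicate 2 of C3H/HeJ sham, whose partner was 5.94-fold higher, and ISO and sham libraries overlapped in every strain at both days.

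Averaged over the strains, the Igf1 difference from sham was 0.12 on the log2 scale at ISO day 14 (SE 0.41, 95% interval -0.77 to 1.01, adjusted p = 1, edgeR) and -0.0037 at day 21 (SE 0.41, interval -0.89 to 0.89, adjusted p = 1). Without the 4 least correlated libraries, when 595 and 560 of 17629 genes passed, the same differences were 0.88 (adjusted p = 0.0143) and 0.84 (adjusted p = 0.0222); C3H/HeJ sham is then the single library with the lowest Igf1 of all, at 23.0 CPM, assumed to vary like the other groups.

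Between strains, over the 3 conditions, Igf1 differed by -0.05 in KK/HlJ against C57BL/6 (SE 0.41, interval -0.94 to 0.84, edgeR adjusted p = 1), by -0.62 in C3H/HeJ against C57BL/6 (SE 0.41, interval -1.51 to 0.28, adjusted p = 0.838) and by 0.57 in KK/HlJ against C3H/HeJ (SE 0.41, interval -0.32 to 1.46, adjusted p = 1). Leaving out only replicate 1 of C3H/HeJ sham gave -1.23 for C3H/HeJ against C57BL/6 and 1.17 for KK/HlJ against C3H/HeJ. The library with 23.0 CPM is then alone in its group. With each library left out in turn, the values ran from -1.23 to -0.319 and from 0.303 to 1.17. The size of the C3H/HeJ difference in Igf1 thus depended on which libraries were kept.

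Igf2, a mainly fetal ligand whose gene is imprinted, was listed at 0 in 14 of 18 libraries. The 4 others had 4 and 13 counts (replicate 2 of KK/HlJ ISO day 14 and of ISO day 21), 27 counts (replicate 2 of C3H/HeJ sham) and 7 counts (replicate 2 of C57BL/6 sham), at most 1.58 CPM. A count of 0 allows up to 3 counts, which is 0.114 to 0.415 CPM at these depths, so Igf2 RNA at or below that level was not detectable. That limit holds for reads counted to Igf2. Of its 5723 exon bases, the 3596 shared with Gm49394 lie on the same strand. Reads there may have been counted for neither gene. No fold change is given for it, although it passed the filter on low counts. H19, the imprinted neighbour of Igf2, was found in all 18 libraries at between 2.83 and 43.6 CPM.

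Igf1r, the receptor, was present at a modest level. KK/HlJ cells had 18.4 and 45.0 CPM at ISO day 14, 12.8 and 47.5 CPM at ISO day 21 and 40.7 and 43.9 CPM in sham hearts of it. C3H/HeJ cells had 24.4 and 21.4 CPM at ISO day 14, 35.0 and 42.0 CPM at ISO day 21 and 45.7 and 29.6 CPM in sham hearts. C57BL/6 cells had 32.9 and 33.2 CPM at ISO day 14, 46.1 and 23.1 CPM at ISO day 21 and 30.3 and 33.9 CPM in sham hearts. Both C3H/HeJ libraries of ISO day 14 lay below both C3H/HeJ sham libraries, whereas in the other strains and at day 21 the groups overlapped. The mean difference from sham was -0.36 at ISO day 14 (SE 0.33, 95% interval -1.05 to 0.32, edgeR adjusted p = 1) and -0.12 at day 21 (SE 0.33, interval -0.80 to 0.56, adjusted p = 1). The 3 strain differences over conditions lay between -0.05 and 0.10, each with an SE of 0.33.

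Igfbp4, which inhibits IGF action until the protease PAPP-A cuts it, had the most reads of the 9 genes and held a median of 46.4% of all IGFBP reads (37.4% to 63.3%). KK/HlJ cells had 2539 and 2606 CPM at ISO day 14, 3263 and 2536 CPM at ISO day 21 and 3136 and 2813 CPM in sham hearts. In C3H/HeJ cells it had 2963 and 2408 CPM at ISO day 14, 2609 and 2064 CPM at ISO day 21 and 3708 and 3106 CPM in sham hearts. C57BL/6 cells had 2224 and 2646 CPM at ISO day 14, 2499.9 and 3643 CPM at ISO day 21 and 2533 and 2708 CPM in sham hearts. At ISO day 14 both KK/HlJ and both C3H/HeJ libraries lay below both sham libraries of their strain, as did both C3H/HeJ libraries of day 21, while the C57BL/6 groups, and KK/HlJ at day 21, overlapped with sham.

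Igfbp4 varied little: the SD between the 2 libraries of a group was 0.21 on the log2 scale, the largest ratio between them was 1.46, and only 0.0634% of the 15762 genes tested had a smaller estimated variation. Its mean difference from sham was -0.22 at ISO day 14 (SE 0.17, 95% interval -0.56 to 0.12, edgeR adjusted p = 0.992) and -0.12 at day 21 (SE 0.17, interval -0.46 to 0.23, adjusted p = 1). The strain differences over conditions were 0.06 for KK/HlJ and 0.04 for C3H/HeJ against C57BL/6, and 0.02 for KK/HlJ against C3H/HeJ, each with an SE of 0.17. The intervals of these 3 differences all lie within -0.32 and 0.40.

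Igfbp7, also known as IGFBP-related protein 1, binds IGFs only weakly and binds insulin and activin. KK/HlJ cells had 559 and 1754 CPM at ISO day 14, 1842 and 1699 CPM at ISO day 21 and 1276 and 1758 CPM in sham hearts of it. C3H/HeJ cells had 1997 and 2237 CPM at ISO day 14, 1644 and 1629 CPM at ISO day 21 and 939 and 1158 CPM in sham hearts. C57BL/6 cells had 2570.1 and 1822 CPM at ISO day 14, 1170.3 and 1672 CPM at ISO day 21 and 1613 and 1347 CPM in sham hearts. All 4 C3H/HeJ ISO libraries and both C57BL/6 libraries of ISO day 14 lay above the sham libraries of their strain; replicate 1 of KK/HlJ ISO day 14, one of the 4 least correlated libraries, was the lowest of all 18.

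Igfbp7 had the largest positive mean difference of the 7 well-counted genes at ISO day 14, 0.40 (SE 0.22, 95% interval -0.06 to 0.85, edgeR adjusted p = 0.905), and 0.27 at day 21 (SE 0.22, interval -0.19 to 0.73, adjusted p = 1). Within C3H/HeJ the day 14 difference was 1.01 (SE 0.39, interval 0.22 to 1.81), an interval that leaves out 0, but it did not pass the test (edgeR adjusted p = 1). The day 14 response of KK/HlJ minus that of C3H/HeJ was -1.41 (SE 0.54, interval -2.53 to -0.28, edgeR adjusted p = 1). Without replicate 2 of KK/HlJ ISO day 14 it was -2.45 (adjusted p = 0.00347), with the low library then alone in its group, and -0.80 (adjusted p = 1) without that low library.

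**Figure D2:**
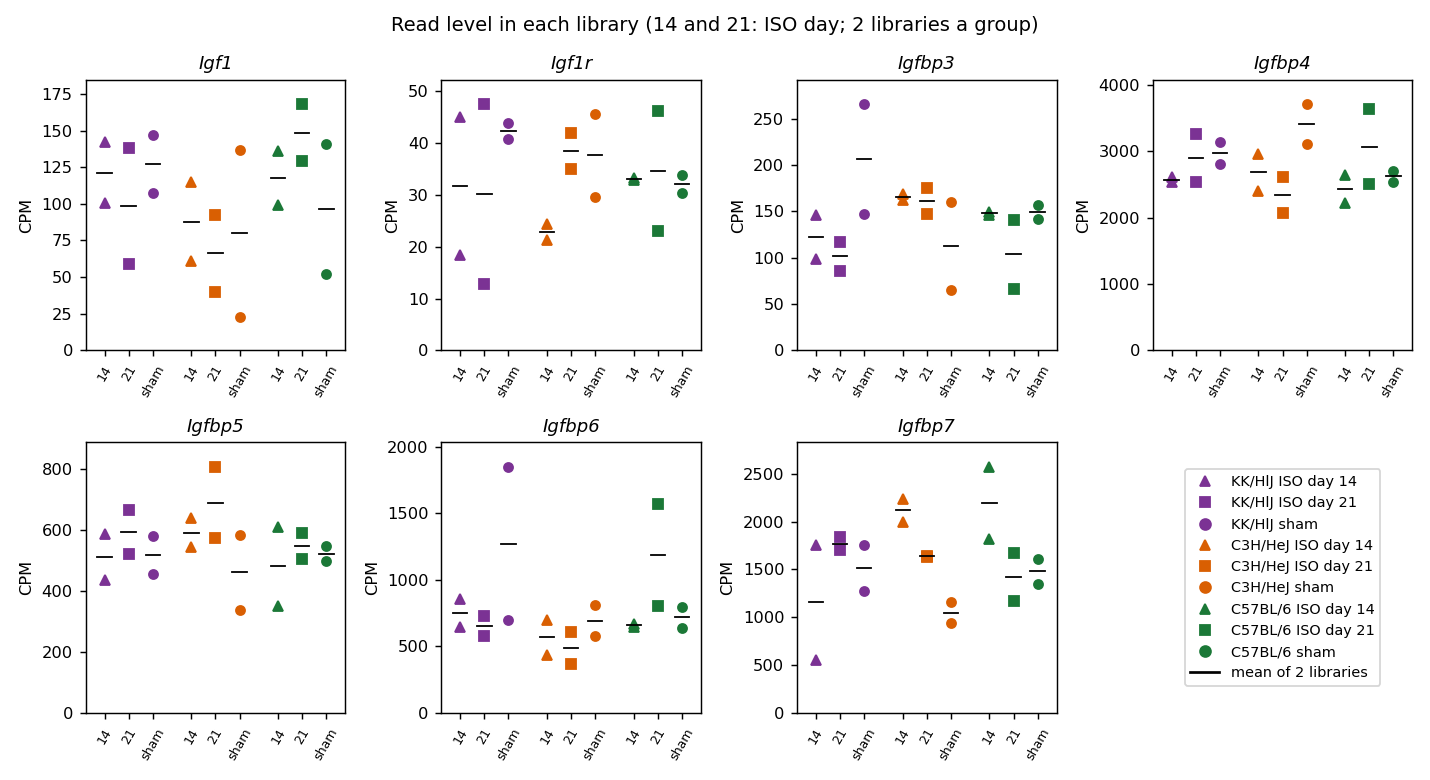
CPM of the 7 well-counted genes in each library, 1 panel a gene, strains from KK/HlJ to C57BL/6 and within each ISO day 14, ISO day 21 and sham; points are libraries and bars the mean of 2. In C3H/HeJ, Igfbp7 at ISO day 14 (1997 and 2237 CPM) lies above sham (939 and 1158 CPM), and Igf1 in sham is split between 137 and 23.0 CPM.

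Igfbp6, which prefers IGF2 over IGF1, had high levels in a few libraries. KK/HlJ cells had 857 and 648 CPM at ISO day 14, 731 and 578 CPM at ISO day 21 and 1848 and 698 CPM in sham hearts. C3H/HeJ cells had 702 and 437 CPM at ISO day 14, 611 and 368 CPM at ISO day 21 and 809 and 576 CPM in sham hearts of Igfbp6. C57BL/6 cells had 649 and 667 CPM at ISO day 14, 806 and 1569 CPM at ISO day 21 and 639 and 799 CPM in sham hearts. Replicate 1 of KK/HlJ sham and replicate 2 of C57BL/6 ISO day 21 stood above the other 16 libraries, and only in C57BL/6 at day 21 did the ISO and sham libraries not overlap, with 806 CPM as the lower ISO value and 799 CPM as the higher sham value.

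The mean difference of Igfbp6 from sham was -0.39 at ISO day 14 (SE 0.24, 95% interval -0.88 to 0.11, edgeR adjusted p = 0.92) and -0.25 at day 21 (SE 0.24, interval -0.74 to 0.25, adjusted p = 1). In KK/HlJ at day 21 it was -0.96 (SE 0.42, interval -1.82 to -0.10, edgeR adjusted p = 0.79). The day 21 responses minus that of C57BL/6 were -1.68 in KK/HlJ (interval -2.90 to -0.46, edgeR adjusted p = 0.703) and -1.22 in C3H/HeJ (interval -2.44 to -0.01, adjusted p = 0.801). Without replicate 2 of KK/HlJ sham, which leaves only the highest library of all in that group, the KK/HlJ values were -1.50 for the day 21 difference (adjusted p = 0.0265) and -2.22 for the day 21 response against that of C57BL/6 (adjusted p = 0.0107). Without replicate 1 of KK/HlJ sham, that highest library, they were -0.0908 and -0.81 (adjusted p = 1 for both). The KK/HlJ values thus turn on which sham library is kept. The C3H/HeJ value was -0.66 without replicate 2 of C57BL/6 ISO day 21. These values also moved under the alternatives that did not leave out a single library. There the C3H/HeJ value ran from -1.29 to -0.073. The KK/HlJ day 21 difference ran from -1.01 to -0.276, and the KK/HlJ response against that of C57BL/6 from -1.77 to -0.844.

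Between strains, over conditions, Igfbp6 differed by 0.05 in KK/HlJ against C57BL/6 (SE 0.24, 95% interval -0.44 to 0.55, edgeR adjusted p = 1), by -0.51 in C3H/HeJ against C57BL/6 (SE 0.24, interval -1.01 to -0.02, edgeR adjusted p = 0.58) and by 0.57 in KK/HlJ against C3H/HeJ (SE 0.24, interval 0.07 to 1.06, adjusted p = 0.665). The C3H/HeJ difference passed the adjusted test without the 4 least correlated libraries (-0.61, adjusted p = 0.0291) and with offsets for exon length and GC content, an alternative chosen after seeing the data (-0.85, adjusted p = 0.0167). In sham alone, KK/HlJ minus C3H/HeJ was 0.88 (SE 0.42, interval 0.02 to 1.74, adjusted p = 0.734), and it was 1.41 (adjusted p = 0.0475) without replicate 2 of KK/HlJ sham but 0.00654 (adjusted p = 1) without replicate 1.

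Igfbp5, which binds extracellular matrix as well as IGFs, was among the steadier members, with an SD of 0.34 (log2) between the libraries of a group. KK/HlJ cells had 434 and 586 CPM at ISO day 14, 522 and 666 CPM at ISO day 21 and 457 and 579 CPM in sham hearts. C3H/HeJ cells had 544 and 637 CPM at ISO day 14, 572 and 806 CPM at ISO day 21 and 338 and 584 CPM in sham hearts. In C57BL/6 cells it had 351 and 609.7 CPM at ISO day 14, 504 and 590.4 CPM at ISO day 21 and 546 and 497 CPM in sham hearts. The ISO and sham libraries overlapped in every strain and at both days. The mean difference from sham was 0.07 at ISO day 14 (SE 0.20, 95% interval -0.34 to 0.48, edgeR adjusted p = 1) and 0.28 at day 21 (SE 0.20, interval -0.13 to 0.69, adjusted p = 0.993), and the 3 strain differences over conditions lay between -0.09 and 0.15, each with an SE of 0.20.

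Igfbp3, the main IGF carrier of blood plasma, was the least abundant of the 5 binding proteins that were well counted. KK/HlJ cells had 98.5 and 146 CPM at ISO day 14, 86.1 and 117 CPM at ISO day 21 and 147 and 265 CPM in sham hearts. C3H/HeJ cells had 168 and 162 CPM at ISO day 14, 175 and 147 CPM at ISO day 21 and 65.2 and 160.0 CPM in sham hearts of Igfbp3. C57BL/6 cells had 149 and 147 CPM at ISO day 14, 66.7 and 141 CPM at ISO day 21 and 141 and 157 CPM in sham hearts for this gene. All 4 KK/HlJ ISO libraries lay below both KK/HlJ sham libraries, both C3H/HeJ libraries of ISO day 14 above their sham, and both C57BL/6 libraries of day 21 below theirs. But the nearest libraries of ISO and sham were almost level. At day 14 they had 146 and 147 CPM in KK/HlJ and 162 and 160.0 CPM in C3H/HeJ, and at day 21 both had 141 CPM in C57BL/6.

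The mean difference of Igfbp3 from sham was -0.07 at ISO day 14 (SE 0.24, 95% interval -0.58 to 0.44, edgeR adjusted p = 1) and -0.34 at day 21 (SE 0.24, interval -0.85 to 0.16, adjusted p = 0.997). In KK/HlJ at day 21 it was -1.02 (SE 0.43, interval -1.91 to -0.13, edgeR adjusted p = 0.79). The KK/HlJ response minus that of C3H/HeJ was -1.31 at day 14 (SE 0.60, interval -2.55 to -0.06, edgeR adjusted p = 1) and -1.54 at day 21 (SE 0.60, interval -2.78 to -0.29, adjusted p = 1). Without replicate 2 of KK/HlJ sham, the highest Igfbp3 library of all, these 3 values were -0.53, -0.82 and -1.04. Without replicate 1 of C3H/HeJ sham, the lowest, the last 2 were -0.84 and -1.05. Without replicate 2 of C3H/HeJ sham the last 2 were -2.10 and -2.32. The 3 strain differences over conditions lay between -0.07 and 0.13, each with an SE of 0.24.

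Igfbp2, a binding protein with a high affinity for IGF2, was at the limit of detection, unlike its neighbour Igfbp5. In KK/HlJ cells it was listed at 0 in 5 of 6 libraries, the other having 9 counts (replicate 2 of ISO day 21). In C3H/HeJ cells it had 69 and 16 counts at ISO day 14, 19 and 17 counts at day 21, and 0 and 10 counts in sham. In C57BL/6 cells it had 0 counts in all 4 ISO libraries and 63 and 14 counts in sham. It was thus detected in 5 of 6 C3H/HeJ libraries, against 1 of 6 for KK/HlJ and 2 of 6 for C57BL/6, at no more than 2.81 CPM in any, and no fold change is given for it.

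Counted over the whole set, 0 of 9 genes passed edgeR's test (adjusted p under 0.05, over 15762 genes) in either averaged ISO comparison. At ISO day 14 the test called 6 of the 15762 genes (0.0381%), and at ISO day 21 it called 7 (0.0444%). Over both days together it called 9 genes (0.0571%) and again 0 of 9 members, so the members' count of 0 is read against a background of almost no calls. None of the 9 had an unadjusted p under 0.05 in either comparison, against 868 of the 15762 genes at day 14 and 803 at day 21, and DESeq2 and limma also called 0 of 9. The median log2 difference of the 7 well-counted genes was -0.07 at day 14 and -0.117 at day 21, beside 0.0189 and 0.0309 over all genes tested, with 3 and 2 of the 7 above 0. Day 21 set directly against day 14 called 0 genes of any kind (0% of 15762 by edgeR; 293 at an unadjusted p under 0.05), and DESeq2 called 3, none of them a member.

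Across strains, over conditions, 0 of 9 were called in KK/HlJ against C57BL/6 (background 0.273%), in C3H/HeJ against C57BL/6 (0.647%) and in KK/HlJ against C3H/HeJ (0.406%) by edgeR, with 0, 2 and 2 members at an unadjusted p under 0.05 in these comparisons (Igfbp2 and Igfbp6 in each of the last 2), beside 915, 1306 and 993 of the 15762 genes; DESeq2 and limma called 0 of 9 in all 3. In sham alone the counts were again 0 of 9 for KK/HlJ against C57BL/6 (0.0508%), C3H/HeJ against C57BL/6 (0.102%) and KK/HlJ against C3H/HeJ (0.152%). In sham, KK/HlJ minus C57BL/6 was 0.40 for Igf1 (SE 0.72), 0.47 for Igfbp3 (SE 0.42) and 0.82 for Igfbp6 (SE 0.41). It was 0.40 for Igf1r (SE 0.57), 0.18 for Igfbp4 (SE 0.29), -0.01 for Igfbp5 (SE 0.34) and 0.036 for Igfbp7 (SE 0.38). The Igfbp6 libraries overlapped, with 1848 and 698 CPM in KK/HlJ sham and 639 and 799 CPM in C57BL/6 sham. C3H/HeJ minus C57BL/6 in sham was -0.27 for Igf1 (SE 0.72), 0.38 for Igfbp4 (SE 0.29) and -0.50 for Igfbp7 (SE 0.38). It was 0.23 for Igf1r (SE 0.57), -0.41 for Igfbp3 (SE 0.42), -0.18 for Igfbp5 (SE 0.34) and -0.055 for Igfbp6 (SE 0.41). Within single strains the test called 0 of 9 at either day, with backgrounds of 0.0127% at day 14 in C3H/HeJ, 0.019% at day 21 in KK/HlJ and 0% in the other 4, and the 6 comparisons of ISO responses between strains called 0 genes by edgeR (270 to 1017 genes at an unadjusted p under 0.05; DESeq2 called 0 to 26, no member among them).

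**Figure D3:**
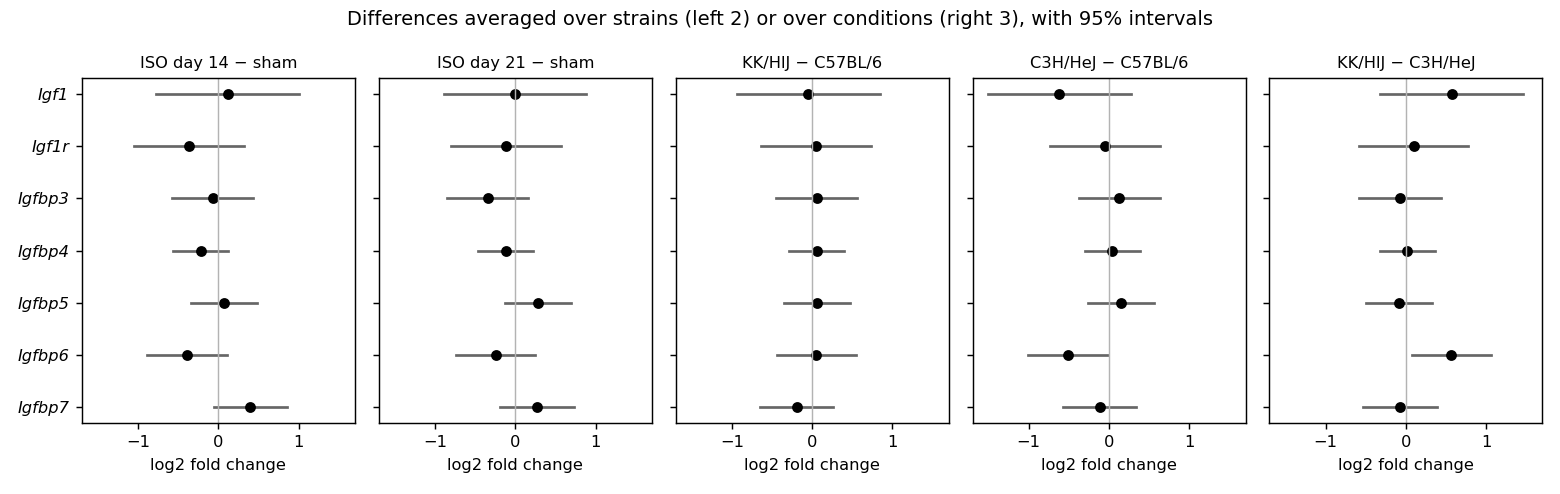
Log2 fold change (points) with its 95% interval (lines) for the 7 well-counted genes, from edgeR: ISO day 14 and ISO day 21 minus sham averaged over strains, then the 3 strain differences averaged over conditions. Intervals are widest for Igf1 (-0.77 to 1.01 at day 14) and narrowest for Igfbp4 (-0.56 to 0.12), and only the Igfbp6 intervals of C3H/HeJ against C57BL/6 and KK/HlJ against C3H/HeJ leave out 0.

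The mix of binding proteins was described by each gene's share of the reads of all 6. Igfbp7 held between 12.5% and 43.2% of IGFBP reads, Igfbp6 between 7.34% and 26.9%, Igfbp5 between 5.76% and 16.1%, Igfbp3 between 1.11% and 4.34%, and Igfbp2 at most 0.044%. These are shares of reads, not of molecules, since the transcripts differ in length.

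**Figure D4:**
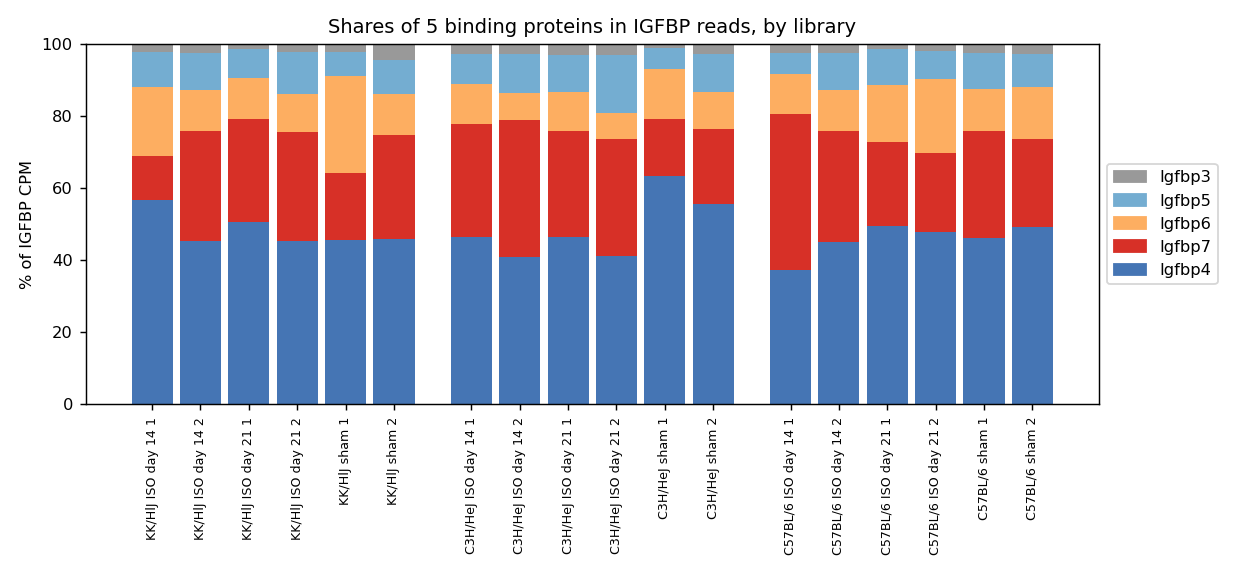
Share of each of 5 binding proteins in the IGFBP reads of each of 18 libraries (% of summed IGFBP CPM, 1 bar a library, bars from 0; Igfbp2, at most 0.044%, is not drawn). Igfbp4 takes 37.4% to 63.3% in every library, and Igfbp7 is lowest, at 12.5%, in replicate 1 of KK/HlJ ISO day 14.

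The levels of several members moved with library-wide trends. For each library, the log2 difference of every gene from its mean over the libraries was regressed on exon length and GC content, which gave slopes of -0.36 to 0.20 per doubling of length and -0.73 to 0.70 per 10 points of GC. Igf1, whose exons are 43.6% GC beside a median of 50.5% for genes with at least 5 CPM, fell with the GC slope over 18 libraries (Pearson r = -0.80, Spearman rho = -0.67; permutation p = 0.0001 and 0.00267, adjusted over 14 correlations 0.0014 and 0.0179). Without the 2 libraries with the farthest GC slopes, r was -0.70; within KK/HlJ, C3H/HeJ and C57BL/6 it was -0.86, -0.96 and -0.81; on deviations from group means it was -0.87. The 2 C3H/HeJ sham libraries, which set the largest gap in Igf1, had GC slopes of -0.185 (137 CPM) and 0.70 (23.0 CPM).

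Igfbp4 and Igfbp6 fell with the length slope (r = -0.76 and -0.70, rho = -0.66 and -0.74, permutation p = 0.00032 and 0.00209, adjusted 0.00224 and 0.00975 for r), and the relation held without the 2 farthest libraries (-0.65 and -0.75). Within KK/HlJ, C3H/HeJ and C57BL/6, r was -0.57, -0.95 and -0.67 for Igfbp4 (-0.61 on deviations from group means) and -0.97, -0.84 and -0.84 for Igfbp6 (-0.83). Igfbp5 rose with it (r = 0.62, rho = 0.61, permutation p = 0.00686, adjusted 0.024), and r was 0.86, 0.97 and -0.28 within KK/HlJ, C3H/HeJ and C57BL/6 and 0.76 on deviations from group means. Without the 2 farthest libraries it was 0.36, so the relation over all 18 rests on those 2. It was not seen in C57BL/6. Igfbp7 had a positive r with the length slope as well (r = 0.49, rho = 0.49, permutation p = 0.0424 and 0.0414, adjusted 0.0934 and 0.0967). Without the 2 farthest libraries that r was 0.35. The exons of Igfbp4, Igfbp6 and Igfbp7 span 4416, 1112 and 1209 bases, beside a median of 4667 for genes with at least 5 CPM. Igfbp4 was thus near the median length, and Igfbp6 and Igfbp7, both short, went opposite ways. Igf1r fell with the GC slope (r = -0.57, rho = -0.55, permutation p = 0.0138 and 0.0213, adjusted 0.0387 and 0.0595, -0.60 without the 2 farthest), with r of -0.91, -0.24 and -0.67 within the 3 strains in the same order and -0.84 on deviations from group means. With offsets for both trends the SD between libraries of a group was 0.65 for Igf1, against 0.86 as counted, and 0.28 for Igfbp6, against 0.50 as counted, but 0.75 for Igfbp7, against 0.45 as counted. For the other members it was 0.26 for Igfbp5 (0.34 as counted), 0.60 for Igf1r (0.61), 0.23 for Igfbp4 (0.21) and 0.49 for Igfbp3 (0.48). The part of these trends in the ISO and strain differences was not tested beyond these offsets.

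**Figure D5:**
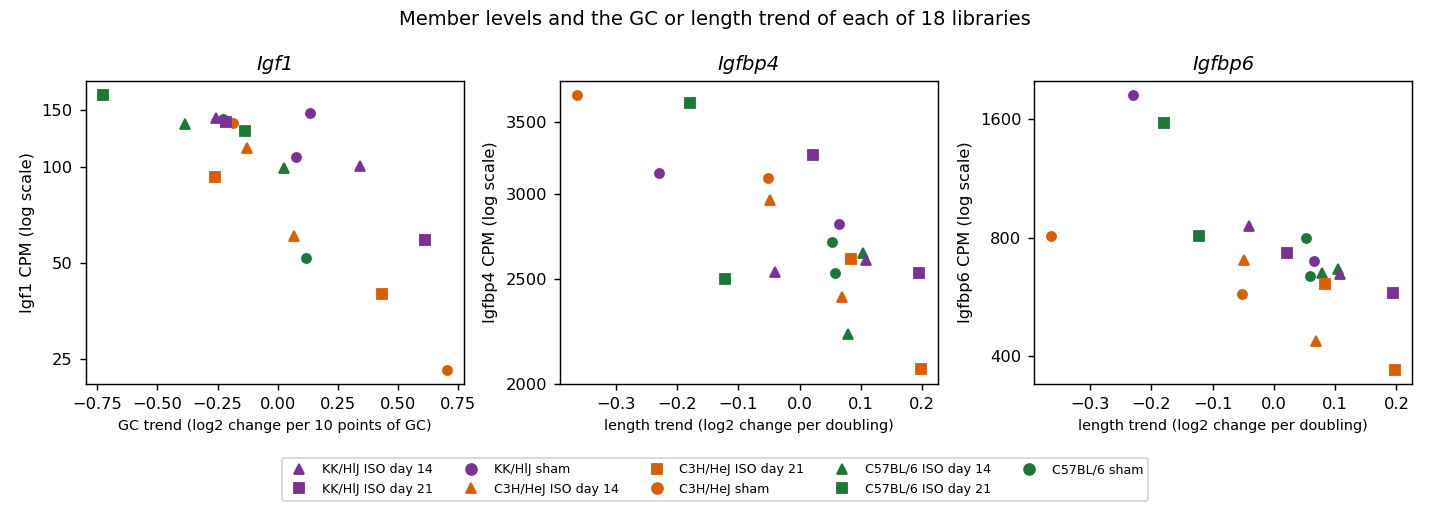
CPM (log axes) of Igf1 against the GC slope, and of Igfbp4 and Igfbp6 against the length slope, of each of 18 libraries; colour is strain and shape is condition. Igf1 falls from left to right (r = -0.80), as do Igfbp4 (r = -0.76) and Igfbp6 (r = -0.70), in libraries of all 3 strains.

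The genes whose levels followed each of the 7 well-counted members most closely over the 18 libraries, among 9813 genes with a mean of at least 5 CPM, were Tshz1 (r = 0.94), Ssb (0.93) and Zranb1 (0.93) for Igf1, and Morc3 (0.84), Rif1 (0.83) and Coa7 (0.83) for Igf1r. Igfbp4 was followed by Paxx (0.90), Nsmce1 (0.88) and Stub1 (0.86), Igfbp6 by Sec61b (0.89), Ap2s1 (0.87) and Rpl8 (0.86), and Igfbp7 by Wipi1 (0.92) and Pde7b (0.87). For Igfbp5 they were Hivep1 (0.84), Siae (0.81) and Coa5 (0.80), and for Igfbp3 Cnot3 (0.84), Ube2q1 (0.81) and Pak4 (0.80). Igfbp4 and Igfbp6 correlated with each other at r = 0.65, and at 0.61 after the offsets. All these values share the same libraries, depths and trends and are descriptions, with no test.

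Of 47 other genes of the pathway, 42 could be tested and 0 were called in any of the 25 comparisons. Over all 15762 genes, edgeR called between 0% and 0.647% in a comparison, so 0 of 42 is near that background. Igf2r, which clears IGF2 from the cell surface, had a median of 204 CPM (77.6 to 386), and the insulin receptor Insr 15.3 CPM (2.34 to 32.6). Of the regulators of IGFBP breakdown, the secreted protease Htra1 had a median of 377 CPM and the PAPP-A inhibitor Stc2 52.7 CPM, while Pappa itself had 2.23 CPM. None of the 6 in that list was called by edgeR. Their median log2 difference from sham, averaged over strains, was 0.56 at ISO day 14 and 0.38 at day 21. Over all genes tested it was 0.0189 and 0.0309. In that list Pappa, Pappa2, Stc1 and Adam12 had medians of 2.23, 0.45, 2.23 and 1.54 CPM. Each was listed at 0 in at least 1 library, so the list's median rests largely on low counts, and it was not tested. For Htra1 the mean difference was -0.36 (SE 0.19, edgeR adjusted p = 0.904) at ISO day 14 and -0.38 (SE 0.19, adjusted p = 0.953) at day 21. Adam12, in the same list, had 11.6 and 12.8 CPM at ISO day 21 in KK/HlJ, against 0 and 1.20 CPM in sham. In C3H/HeJ it had 6.01 and 4.26 CPM at that day, against 0 and 1.09 CPM. In C57BL/6 it had 0 and 1.59 CPM, against 1.49 and 0.57 CPM. At ISO day 14 Adam12 had 3.12 and 5.79 CPM in KK/HlJ, 6.15 and 0.575 CPM in C3H/HeJ and 2.32 and 0 CPM in C57BL/6. The C3H/HeJ and C57BL/6 libraries of that day overlapped with sham. Among the 42 pathway genes tested, the lowest adjusted p in an averaged comparison belonged to Pik3r1, a regulatory subunit of PI3 kinase. It was in C3H/HeJ against C57BL/6 (-1.10, SE 0.31, edgeR adjusted p = 0.151). Igfals, the acid-labile partner of IGFBP3 in plasma, and Igfbp1, a binding protein of liver origin, had at most 2.63 and 1.09 CPM and did not pass the filter on low counts.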

How the data were processed

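The deposited files hold whole-number read counts per gene, 1 file for each of 18 libraries; per the submitters' processing notes, FastQC, STAR 2.5.3a, edgeR and the build mm10 were used. Per the labels' protocols, the libraries were stranded (KAPA mRNA HyperPrep) and sequenced as 50-nt single-end reads on an Illumina HiSeq. Which counting tool, strand setting and annotation release were used is not stated in the labels. Reads of all strains were placed on a build derived from C57BL/6, so sequence differences of the other strains could lower their counts.

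Of 53342 identifiers, 53237 matched GENCODE M21 and 105 did not; these 105 held 0.0016% of reads. Counts were scaled by TMM and tested with edgeR 4.0.16 (R 4.3.3; quasi-likelihood test, 1 fit of all 18 libraries with group as the factor, 9 residual degrees of freedom) on the 15762 genes that passed filterByExpr, all 9 members among them, with Benjamini-Hochberg adjustment over all genes in each of 25 comparisons. CPM values are TMM-scaled, and levels per kb use the union of a gene's exons. Library replicates differed by far more than sampling noise (chi-square per degree of freedom 63.7 to 167), so none were merged. The SE of a difference was its absolute log2 fold change divided by the square root of edgeR's F statistic. Its interval used the test's total degrees of freedom, which add a part shared over genes to the 9 residual ones. Intervals of differences cover the spread between libraries, and the floor of 3 counts covers counting error only. Correlation tests used 100000 permutations, two-sided, on log2 CPM (SciPy 1.17.1). Alternatives were DESeq2 1.42.0, limma 3.58.1 (voom with quality weights), RLE scaling, no filter, a replicate block, only the groups compared, leaving out libraries, and, chosen after seeing the data, offsets for exon length and GC content. The members, the pathway and marker lists and the 4 libraries left out together were chosen with earlier results of these data known. The 9 members are named whatever they showed, and the genes most like each were the 3 with the highest Pearson r, given for the 7 well-counted members and not for Igf2 and Igfbp2, whose median was 0; 1 for Igfbp7 is not reported here.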

Additional observations from a re-analysis of the deposited data

Results flagged for a closer look

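Igfbp2, which was at the limit of detection, had a mean CPM that moved opposite ways under ISO in C3H/HeJ and C57BL/6. At ISO day 14 its mean was 2.17 CPM in C3H/HeJ, against 0.286 CPM in C3H/HeJ sham, and 0 CPM in C57BL/6, against 1.47 CPM in C57BL/6 sham, so the changes differed by 3.36 CPM. At day 21 its mean was 1.26 CPM in C3H/HeJ and 0 CPM in C57BL/6, and the changes differed by 2.44 CPM (1.51 CPM without replicate 1 of C57BL/6 sham). Both C3H/HeJ ISO libraries lay above both sham libraries at each day, and both C57BL/6 ISO libraries below both. In C3H/HeJ the nearest at day 21 were 0.79 CPM under ISO (17 counts) and 0.57 CPM in sham (10 counts). The C57BL/6 sham libraries held 25356498 and 24748674 total counts, and the ISO libraries of that strain between 10453121 and 16565460. The part of depth in the 0 counts was not tested. The difference between the responses did not pass edgeR's test (adjusted p = 1 at day 14 and 0.801 at day 21), and the 69 counts at most are few.

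The mean of Igfbp3 went opposite ways at ISO day 14 in KK/HlJ (122 CPM, against 206 CPM in sham) and in C3H/HeJ (165 CPM, against 113 CPM in sham). The change of KK/HlJ minus that of C3H/HeJ was -137 CPM. The nearest libraries of ISO and sham were almost level, at 146 and 147 CPM in KK/HlJ and 162 and 160.0 CPM in C3H/HeJ. The difference between the responses did not pass edgeR's test (adjusted p = 1). It was -77.6 CPM without replicate 2 of KK/HlJ sham (265 CPM) and -89.4 CPM without replicate 1 of C3H/HeJ sham (65.2 CPM), the lowest library.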

How the results depend on the processing

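Under DESeq2, limma, the replicate block, RLE scaling, a fit with no filter and only the groups compared, the number of members called was 0 in every comparison, as with edgeR. The replicate numbers showed no pairing common to all groups. Correlations of same-numbered libraries between groups had a median of -0.016 (-0.367 to 0.361, over 0.1 in 13 of 36). Pairing within part of the groups was not tested, and the 4 least correlated libraries were all replicate 1. The block moved the genes called at ISO day 14 to 8, against 6 without it. Of all genes, DESeq2 called 75 at ISO day 14 and 45 at day 21, and no filter gave 75 and 55, against 6 and 7. Without the 4 least correlated libraries, which leaves 1 library in each of 4 groups and lets 17629 genes pass the filter, 595 genes were called at ISO day 14, 560 at day 21 and 769 over both days. Then 1 member (Igf1) was called in those 3 comparisons, at ISO day 14 and day 21 within C3H/HeJ (beside 385 and 227 genes in all), in C3H/HeJ against C57BL/6 and KK/HlJ against C3H/HeJ in sham (484 and 427), and in KK/HlJ against C3H/HeJ over conditions (463); 2 (Igf1 and Igfbp6) were called in C3H/HeJ against C57BL/6 over conditions (1195). With the length and GC offsets, 1 member (Igfbp6) was called in that last comparison, beside 115 of 15762 genes in all. Leaving out 1 library at a time moved the members called between 0 and 1 in 8 comparisons: without replicate 2 of KK/HlJ sham (Igfbp6 in 3), without replicate 1 of C3H/HeJ sham (Igf1 in 3) and without replicate 2 of KK/HlJ ISO day 14 (Igfbp7 in 3); KK/HlJ against C3H/HeJ in sham is counted under both sham libraries. All genes called also increased there: to between 203 and 284 of 17981 without the first, between 54 and 223 of 17944 without the second and between 543 and 703 of 17981 without the third, against between 0 and 102 of 15762 with every library. Differences of mean values changed sign in 22 of 44 member and comparison pairs under at least 1 of 26 settings, and of these sign changes only that of Igf1 at ISO day 21 without the 4 libraries passed the test. The pairs covered the 7 well-counted genes at ISO day 14 and day 21, averaged over strains, and in the 3 strain comparisons over conditions. Pairs from other comparisons were added only where the unadjusted edgeR p was under 0.05. No added pair changed sign, so all sign changes lie in the averaged comparisons. The cause of the sign changes was not tested. Without the 4 libraries, these were reversed: ISO day 14 minus sham (Igfbp5 -0.0279), ISO day 21 minus sham (Igf1 0.84, Igf1r 0.20, Igfbp6 0.0741), C3H/HeJ minus C57BL/6 (Igfbp4 -0.013), KK/HlJ minus C57BL/6 (Igf1 0.093, Igfbp4 -0.0379, Igfbp6 -0.38, Igfbp7 0.0478) and KK/HlJ minus C3H/HeJ (Igfbp3 0.0294, Igfbp4 -0.0248, Igfbp7 0.13). With the offsets: ISO day 14 minus sham (Igf1 -0.0774, Igfbp3 0.0875, Igfbp5 -0.00801, Igfbp6 0.0607), ISO day 21 minus sham (Igfbp6 0.19), C3H/HeJ minus C57BL/6 (Igf1r 0.11, Igfbp4 -0.18), KK/HlJ minus C57BL/6 (Igf1 0.15, Igf1r -0.0784, Igfbp4 -0.12, Igfbp6 -0.28) and KK/HlJ minus C3H/HeJ (Igf1r -0.19, Igfbp3 0.000195, Igfbp7 0.0674). With limma: ISO day 21 minus sham (Igf1 0.20), KK/HlJ minus C57BL/6 (Igf1r -0.0753) and KK/HlJ minus C3H/HeJ (Igf1r -0.0483). With the replicate block: KK/HlJ minus C57BL/6 (Igfbp6 -0.00695). Leaving out each library in turn, the lowest and highest values of those that changed sign were, for ISO day 14 minus sham (Igf1 -0.15 to 0.71, Igfbp3 -0.24 to 0.18, Igfbp5 -0.0789 to 0.21), ISO day 21 minus sham (Igf1 -0.27 to 0.59, Igf1r -0.53 to 0.10, Igfbp6 -0.43 to 0.0416), C3H/HeJ minus C57BL/6 (Igf1r -0.19 to 0.15, Igfbp3 -0.13 to 0.34, Igfbp4 -0.0397 to 0.14), KK/HlJ minus C57BL/6 (Igf1 -0.29 to 0.25, Igf1r -0.37 to 0.27, Igfbp3 -0.11 to 0.27, Igfbp4 -0.023 to 0.16, Igfbp5 -0.0496 to 0.22, Igfbp6 -0.25 to 0.24, Igfbp7 -0.54 to 0.00947) and KK/HlJ minus C3H/HeJ (Igf1r -0.32 to 0.31, Igfbp3 -0.24 to 0.18, Igfbp4 -0.0483 to 0.0757, Igfbp5 -0.20 to 0.0568, Igfbp7 -0.43 to 0.12). Depth limits Igf2 and Igfbp2, which had at most 27 and 69 counts; for the other 7 genes the spread between 2 libraries a group is the limit.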
